A study of Homo sapiens with 16 samples.

Results

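The genes described here encode 9 enzymes of glycogen metabolism and of the pentose phosphate pathway, GYS1, GBE1, PYGL, PYGB, PGM1, UGP2, PGD, TKT and TALDO1, out of 57773 genes in the count table and 20175 genes tested. They were taken as a list of named enzymes because loss of KDM5C has been linked to glycogen turnover in kidney cancer. All 9 passed the filter on low counts, which asked for a sum of at least 60 counts over the 16 libraries, and the lowest count of any of them in any library was 165.

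The RNA came from 4 established lines of human clear cell renal carcinoma (ccRCC), namely A498, 769-P, CAKI-2 and 786-O. All cells, controls included, had been transduced with a lentivirus carrying Cas9 and a guide RNA and selected as mixed populations rather than clones. Each line had 1 library with the control guide (sgCtrl) and 2 libraries with guides against the histone demethylase gene KDM5C (sgKDM5C, guides 4 and 5), and 786-O and CAKI-2 had 2 further libraries with guides against its Y-linked homologue KDM5D (sgKDM5D, guides 2 and 4). The 2 guides stood as the replicates of a group, so p-values measure the spread between guides, and nothing in the labels says whether they were separate experiments.

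Glycogen is a branched glucose store, and an abundance of it together with lipid gives ccRCC cells their clear cytoplasm. Phosphoglucomutase (PGM1) and UDP-glucose pyrophosphorylase (UGP2) prepare the activated glucose that glycogen synthase (GYS1, the muscle-type form found in most tissues) adds to the chain and that branching enzyme (GBE1) rearranges, and the phosphorylases PYGL (liver form) and PYGB (brain form) release glucose phosphate from it again. The pentose phosphate pathway uses glucose 6-phosphate to make NADPH and ribose phosphate. PGD carries out one of its oxidative steps, and transketolase (TKT) and transaldolase (TALDO1) shuttle carbon between sugar phosphates in the non-oxidative branch.

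Total counts were 23.4 M to 41.6 M per library (M for mega). KDM5C itself was at 26.2% to 57.3% of the line's control in the 8 sgKDM5C libraries and at 91.5% to 106% in the 4 sgKDM5D libraries. KDM5D was at 76.2% and 79.1% of control in the sgKDM5D libraries of 786-O and at 102% and 103% in those of CAKI-2, against 66.0% and 85.8% and against 107% and 82.9% in the sgKDM5C libraries of these lines, so its transcript level does not check that label. The 8 markers of kidney epithelium included PAX8 (144 to 967 CPM, counts per M of the scaled library total) and the keratins KRT8 and KRT18. Of the 8, 1 or 2 per line were under 1 CPM in all libraries, namely CA9 outside A498 and LRP2 in 786-O and A498. The summed CPM of 4 markers each reached 0.638 at most for immune cells, 0.412 for red cells and 9.95 (in 769-P) for fibroblasts, and that of 3 endothelial markers reached 3.36 (in CAKI-2). The paired sgKDM5C libraries of 786-O and 769-P differed most (chi-square per gene of 62.1 and 41.6, against 8.75 to 16.5 in the other 4 pairs). In the 769-P library with guide 4, log2 levels of genes with 60% GC were lower than those of genes with 40% GC by more than elsewhere (a difference of -0.88 against the mean over all libraries, with -0.29 and -0.27 in the other libraries of that line).

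The 9 enzymes differed between cell lines, and none passed the test for a genotype. PYGL transcripts were 16.8-fold higher in A498 than in 769-P, GYS1 transcripts were 4.65-fold higher in CAKI-2 than in A498, and PGD and TKT were about equally spread, with their highest level in CAKI-2 and their lowest in 769-P. In all 10 comparisons that concern genotype, 0 of the 9 passed an adjusted p of 0.05, and 0% to 0.0644% of all genes did, so these counts do not set the enzymes apart. In such bulk libraries a lower level in each cell and fewer cells with the transcript cannot be told apart.

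**Figure D1:**
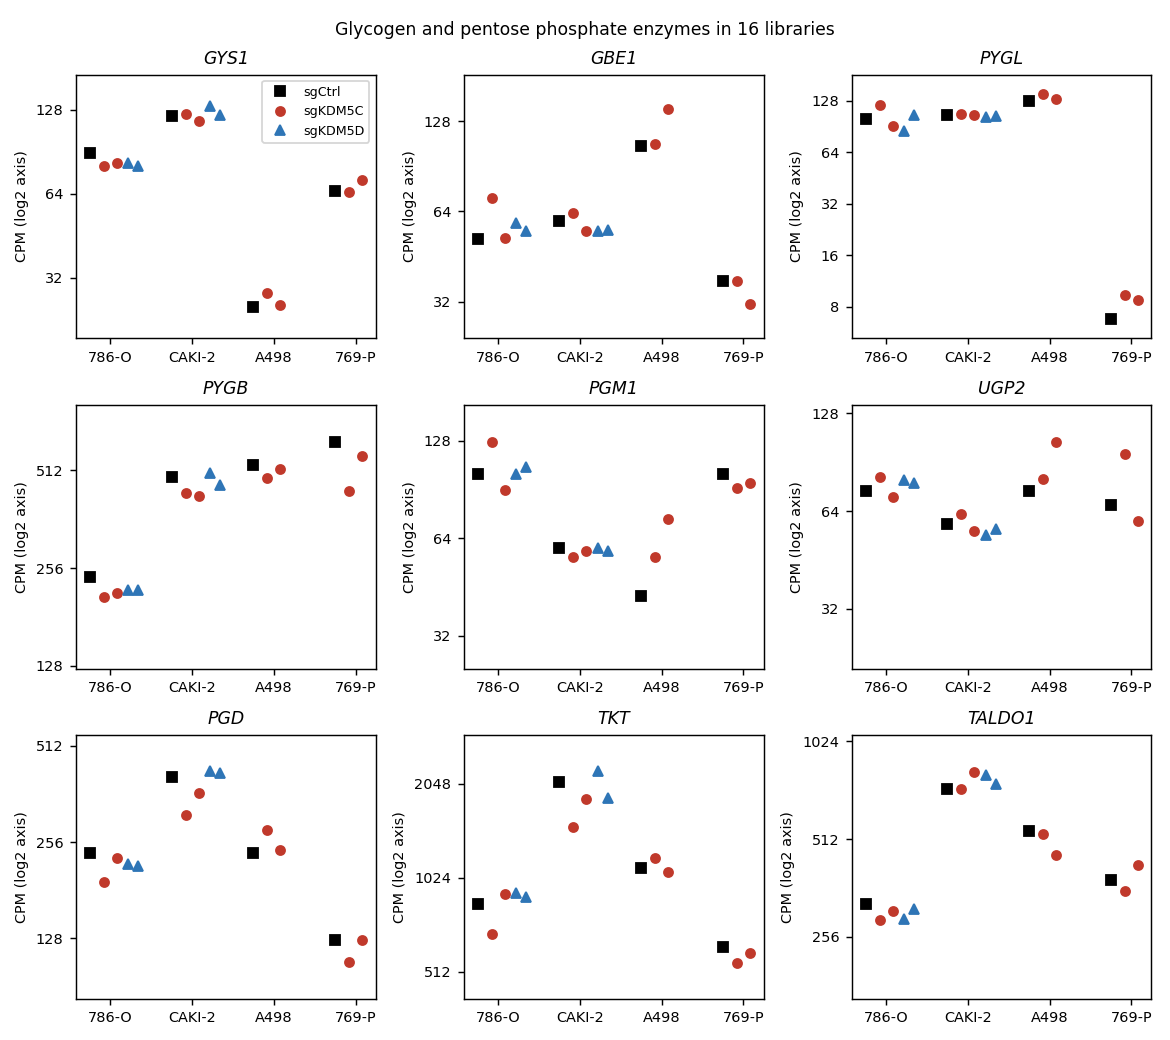
Level of each enzyme gene in each of the 16 libraries, in CPM on a log2 axis, by cell line (x axis) and guide (black squares sgCtrl, red circles sgKDM5C, blue triangles sgKDM5D). Each point is 1 library. PYGL lies between 85.3 and 140 CPM in 3 lines and at 9.42 CPM or below in 769-P, and GYS1 is lowest in A498.

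Per base of transcript, the non-oxidative pentose phosphate enzymes had the highest medians. The median FPKM over the 16 libraries (CPM per kilobase of the canonical transcript) was 369 for TALDO1, 331 for TKT and 104.5 for PGD. Of the glycogen genes, PYGB had a median of 109.9 FPKM, PYGL 37.4, PGM1 35.0, UGP2 33.6, GYS1 22.9 and GBE1 18.9. When the union of all annotated exons served as the length, the first 6 ranks stayed as they were and UGP2 moved from rank 7 to rank 9, with a median of 10.6 FPKM. Within lines the order differed, since mean PGD exceeded mean PYGB in 786-O (96.3 against 53.6 FPKM) and CAKI-2 (170 against 112 FPKM), and with union exons PYGB exceeded TKT in 769-P (122.6 against 61.5 FPKM).

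GYS1 (chromosome 19, 49471387 to 49496567 on the minus strand of GRCh37, in GENCODE release 44) encodes the enzyme that extends the glycogen chain. In 786-O it was measured at 90.0 CPM with sgCtrl, 80.3 and 82.7 with sgKDM5C guides 4 and 5, and 82.6 and 80.6 with sgKDM5D guides 2 and 4. In CAKI-2 the same order of libraries gave 121.7, 123.6, 117.2, 132.0 and 122.5 CPM. A498 had 25.2, 28.3 and 25.6 CPM and 769-P had 65.4, 64.8 and 71.5 CPM with sgCtrl and sgKDM5C guides 4 and 5. The 4 lines did not overlap, and each step of the order CAKI-2, 786-O, 769-P, A498 passed the test (edgeR quasi-likelihood test, adjusted p = 0.00109, 0.0133 and 9.22e-08). The step between 786-O and 769-P (log2 difference 0.36) was 0.18 with an adjusted p of 0.114 after correction for GC content library by library. With the sgKDM5C groups alone that step was 0.26 (adjusted p = 0.112 by edgeR). With the sgCtrl libraries alone it was 0.46 and was not called. Nor was 786-O against CAKI-2, at -0.43, called with those libraries.

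GBE1 (chromosome 3, 81538854 to 81810796, minus strand), which adds the branches, had almost the reverse pattern in A498. Its levels there were 106.0, 107.4 and 140.6 CPM with sgCtrl and sgKDM5C guides 4 and 5. In 786-O the 5 libraries had 51.7, 70.8, 52.2, 58.6 and 55.3 CPM in the order sgCtrl, sgKDM5C 4 and 5, sgKDM5D 2 and 4, and in CAKI-2 they had 59.3, 63.3, 55.2, 54.9 and 55.7 CPM. The 769-P libraries had 37.6, 37.5 and 31.5 CPM. The log2 difference of A498 over 786-O was 1.02 (SE 0.153, adjusted p = 3.36e-05), 786-O and CAKI-2 overlapped (difference -0.07, adjusted p = 0.701), and 769-P was lowest. Per length, the ratio of GBE1 to GYS1 was therefore 4.61 to 6.67 in the 3 libraries of A498 and 0.505 to 1.07 in the 13 libraries of the other lines.

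PYGL (chromosome 14, 51324609 to 51411201, minus strand), the liver-type phosphorylase, varied most between lines, with an SD of 1.92 over the 4 line means on the log2 scale. For comparison, the median SD was 0.667 over the 9 enzymes and 0.66 over all genes averaging 100 counts or more. In 786-O its levels were 100.4 CPM with sgCtrl, 120.2 and 91.6 with sgKDM5C and 85.3 and 105.9 with sgKDM5D. CAKI-2 had 106.4, 106.8, 105.1, 102.6 and 104.4 CPM in the same order, and A498 had 128.1, 140.1 and 131.6 CPM. In 769-P the 3 libraries had 6.80, 9.42 and 8.72 CPM, from 165, 265 and 212 counts. The 769-P values lay far below all the others: 786-O exceeded 769-P by 3.71 (SE 0.157, adjusted p = 2.45e-10), CAKI-2 by 3.76 and A498 by 4.07 on the log2 scale. Over the alternative settings these 3 differences ranged from 3.54 to 4.27. PYGL in A498 also exceeded that in CAKI-2 by 0.31 (adjusted p = 0.049), a call that 7 of the alternative settings lost. Its exons touch those of a long non-coding RNA on the other strand, and the use of strand in counting is not given in the sources used here.

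PYGB (chromosome 20, 25228721 to 25278648, plus strand), the brain-type phosphorylase, had its highest mean in 769-P. It was lowest in 786-O, at 239.8 CPM with sgCtrl, 209.1 and 215.3 with sgKDM5C and 219.2 and 220.0 with sgKDM5D. CAKI-2 had 487.1, 436.2, 425.9, 503.5 and 461.1 CPM in that order. A498 had 533.4, 484.8 and 515.9 CPM and 769-P had 627.9, 443.6 and 566.9 CPM. The log2 difference of CAKI-2 over 786-O was 1.02 (SE 0.120, adjusted p = 4.17e-06), while the ranges of CAKI-2, A498 and 769-P overlapped. The difference of -0.30 for CAKI-2 against 769-P (adjusted p = 0.0398) was called but lost under 8 alternatives, and removal of the GC trends gave -0.46 for A498 against 769-P (adjusted p = 0.000757). The muscle form PYGM was at 0.856 CPM or less in the mean of each line.

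The phosphorylase pool, the summed FPKM of PYGL, PYGB and PYGM, thus differed in make-up. PYGL was 36.4% to 45.8% of it in 786-O, 23.04% to 26.6% in CAKI-2, 26.0% to 29.8% in A498 and 1.57% to 3.03% in 769-P. These shares hold for the canonical lengths. In 786-O, mean PYGL and PYGB were 36.0 and 53.6 FPKM with them, and 22.1 and 49.5 FPKM with union exons. The pool itself was 83.8 to 94.1 FPKM in 786-O and 111 to 176 FPKM elsewhere, so the low PYGL of 769-P did not make its pool the smallest. The ratio of GYS1 to the pool was 0.0402 to 0.0471 in A498, 0.118 to 0.163 in 769-P, 0.218 to 0.240 in CAKI-2 and 0.240 to 0.276 in 786-O. These are transcript levels, and neither enzyme activity nor glycogen was measured in these files.

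**Figure D2:**
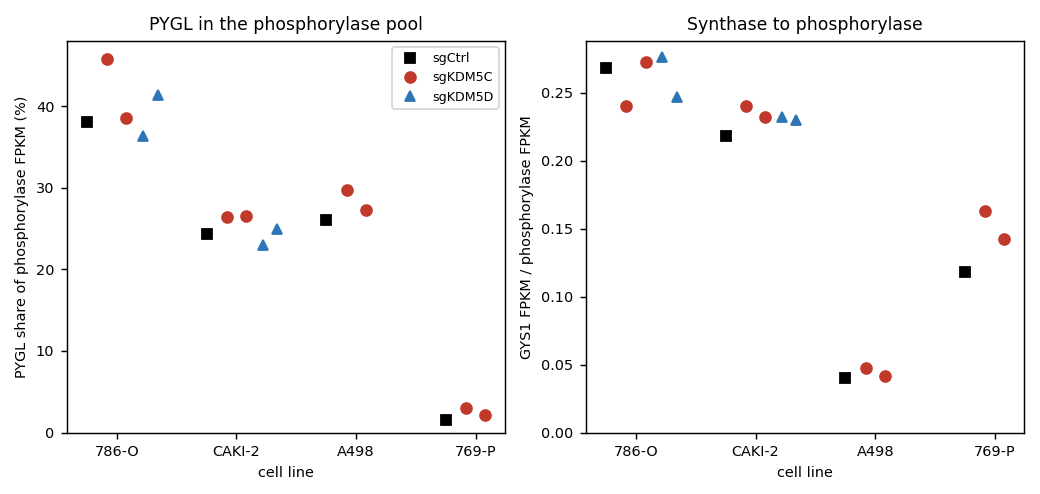
Left, share of PYGL in the summed FPKM of PYGL, PYGB and PYGM (percent) and right, ratio of GYS1 to that sum, for each library by cell line (black squares sgCtrl, red circles sgKDM5C, blue triangles sgKDM5D). The PYGL share stays at or below 3.03% in 769-P, and the GYS1 ratio stays at or below 0.0471 in A498. FPKM are per length of the canonical transcript.

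Because GYS1, PYGL and PYGB had their extremes in different lines, the reference sequence before their start sites is shown, from the RefSeq promoter table (GRCh38.p14), in which all 9 genes had an entry. The 250 bases before the start are printed from 5′ to 3′. Capitals mark CGTG on either strand (CACG on the strand shown), the core letters within the longer element bound by hypoxia-inducible factors, the factors that loss of VHL stabilises in ccRCC. GYS1 is at chr19:48993310-48993559 on the minus strand, PYGL at chr14:50944484-50944733 on the minus strand and PYGB at chr20:25247835-25248084 on the plus strand.
GYS1: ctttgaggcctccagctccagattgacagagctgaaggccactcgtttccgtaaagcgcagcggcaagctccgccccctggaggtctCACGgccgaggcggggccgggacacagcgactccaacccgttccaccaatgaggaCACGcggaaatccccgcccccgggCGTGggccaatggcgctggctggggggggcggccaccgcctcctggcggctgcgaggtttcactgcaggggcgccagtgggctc
PYGL: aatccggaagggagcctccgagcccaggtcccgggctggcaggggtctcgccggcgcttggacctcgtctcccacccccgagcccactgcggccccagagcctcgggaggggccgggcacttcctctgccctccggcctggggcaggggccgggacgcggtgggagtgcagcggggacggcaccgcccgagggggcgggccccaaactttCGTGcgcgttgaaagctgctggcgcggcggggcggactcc
PYGB: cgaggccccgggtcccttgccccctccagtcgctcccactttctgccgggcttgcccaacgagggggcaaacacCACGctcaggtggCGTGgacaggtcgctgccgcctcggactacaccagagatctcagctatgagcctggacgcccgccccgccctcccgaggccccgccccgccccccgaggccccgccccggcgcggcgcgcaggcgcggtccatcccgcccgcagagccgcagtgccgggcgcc

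The core was found 3 times before GYS1, 1 time before PYGL and 2 times before PYGB. Of 35116 promoters of this length, 61.1% held it at least 1 time and 16.8% at least 3 times. The longer letters ACGTG, the core with A before it, were in none of the 3 windows and in 18.5% of all promoters. GCGTG, the core with G before it, was not counted over all promoters and can be read in the GYS1 and PYGB windows. Among the enzymes not shown, ACGTG was in a window of GBE1, PGM1, UGP2 and PGD but not of TKT or TALDO1. The windows of GYS1, PYGL and PYGB held 22, 27 and 30 CG dinucleotides, against a median of 11. At least as many as in PYGL were held by 17.7% of all promoters. These letters belong to the reference and not to any line, and a match or its absence describes this window alone.

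PGM1 (chromosome 1, 64059082 to 64125916, plus strand), which interconverts the 2 glucose phosphates, was highest in 786-O and 769-P. Its 786-O levels were 101.3 CPM with sgCtrl, 127.0 and 89.9 with sgKDM5C and 101.0 and 105.8 with sgKDM5D, and the 769-P levels were 101.3, 91.4 and 94.6 CPM. CAKI-2 had 59.7, 56.0, 58.5, 59.7 and 58.5 CPM, and A498 had 42.5, 56.0 and 73.6 CPM. The first pair of lines exceeded the second, with a log2 difference of 0.73 between 769-P and CAKI-2 (adjusted p = 0.000571). The lines within each pair overlapped. PGM1 shares exon positions with ITGB3BP on the other strand.

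UGP2 (chromosome 2, 64068086 to 64118696, plus strand), which makes UDP-glucose, was the most even of the 9, with an SD of 0.20 over the line means. Its levels in 786-O were 73.7 CPM with sgCtrl, 81.3 and 70.9 with sgKDM5C and 79.9 and 78.3 with sgKDM5D, and in CAKI-2 58.5, 62.5, 55.5, 54.0 and 56.4 CPM. A498 had 73.7, 80.1 and 104.7 CPM and 769-P had 67.0, 95.9 and 59.5 CPM. Neighbours in the order A498, 786-O, 769-P, CAKI-2 all overlapped, and of 6 pairs of lines the test separated A498 from CAKI-2 alone (log2 difference 0.49, SE 0.171, adjusted p = 0.021). Removing the GC trends gave 0.54 for A498 over 786-O (adjusted p = 0.000342) and 0.80 for A498 over 769-P (adjusted p = 1.24e-05). The transcript of UGP2 has the lowest GC content of the 9 (39.2%), and UGP2 shares exon positions with the small nucleolar RNA ACA59 on the other strand.

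PGD (chromosome 1, 10458649 to 10480568, plus strand), the NADPH-producing 6-phosphogluconate dehydrogenase, was highest in CAKI-2. Its levels there were 410.0 CPM with sgCtrl, 310.4 and 363.8 with sgKDM5C, and 426.4 and 419.8 with sgKDM5D. In 786-O they were 237.0, 191.9, 228.7, 219.2 and 215.2 CPM, in A498 237.2, 278.8 and 242.3 CPM, and in 769-P 126.2, 107.6 and 126.4 CPM. The 769-P values were lowest and the sets of A498 and 786-O touched at 237 CPM, and the difference between them did not pass the test (log2 difference 0.16, SE 0.125, adjusted p = 0.285). For 786-O against A498, removal of the GC trends gave -0.32 (adjusted p = 0.0153 by edgeR). Without sgKDM5C guide 5 in all lines the value was -0.29.

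TKT (chromosome 3, 53258728 to 53290068, minus strand) followed the order of PGD. Its levels in CAKI-2 were 2082, 1486, 1829, 2257 and 1842 CPM in the order sgCtrl, sgKDM5C 4 and 5, sgKDM5D 2 and 4. A498 had 1097, 1187 and 1071 CPM, 786-O had 841.6, 675.9, 911.1, 912.7 and 892.0 CPM, and 769-P had 616.7, 546.0 and 589.8 CPM. Each step of the order passed the test, with 1.65 on the log2 scale (SE 0.149, adjusted p = 2.97e-07) between CAKI-2 and 769-P, although the step from 786-O to 769-P was 0.29 with an adjusted p of 0.0558 after the GC trends were removed. With the sgCtrl libraries alone, neither 786-O against A498 (-0.38) nor 786-O against 769-P (0.45) was called.

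TALDO1 (chromosome 11, 747415 to 765012, plus strand) shared the maximum but not the minimum. CAKI-2 had 730.5, 729.5, 825.0, 805.2 and 757.7 CPM, A498 had 542.1, 530.5 and 457.8 CPM and 769-P had 383.0, 354.7 and 427.0 CPM. In 786-O, where TALDO1 was lowest, the 5 libraries had 322.8, 289.1, 308.6, 289.8 and 311.9 CPM. The lowest step, 769-P over 786-O by 0.32 (adjusted p = 0.0424), was lost under 5 alternatives. Per length of the canonical transcript, TKT stood at 0.553 to 0.645 of TALDO1 in 769-P and at 0.810 to 1.26 in the other lines, and PGD stood at 0.250 to 0.375 of TKT in all 16 libraries. These ratios depend on the length chosen. In 786-O, mean FPKM of PGD, TKT and TALDO1 were 96.3, 282.6 and 253.9 with canonical lengths. With union exons they were 65.5, 89.1 and 104.7.

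Differences between lines were common across the whole transcriptome, and the counts among the 9 are given beside that background. Between 786-O and CAKI-2, 6 of 9 were called (63.3% of all genes tested were called), 1 higher in 786-O and 5 lower. The counts were 7 of 9 for 786-O against A498 (68.7% of all genes), 7 of 9 for 786-O against 769-P (50% of all genes) and 7 of 9 for CAKI-2 against A498 (65.8% of all genes). They were 8 of 9 for CAKI-2 against 769-P (63.8% of all genes) and 7 of 9 for A498 against 769-P (69.9% of all genes). In all, 42 of 54 tests passed. Each of the 9 had at least 1 pair of lines that differed, but no pair differed in all 9.

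**Figure D3:**
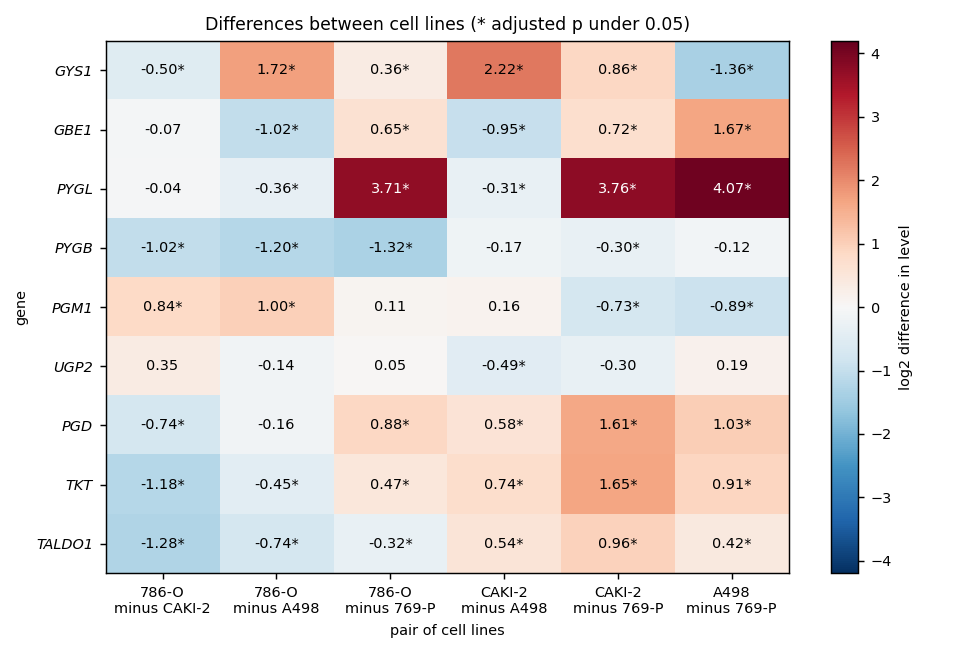
Log2 difference in level between each pair of cell lines (columns, first line minus second) for each gene (rows), with sgCtrl and sgKDM5C libraries of each line combined. Red is higher in the first line, blue lower, and a star marks an adjusted p under 0.05. The largest values are those of PYGL against 769-P (3.71, 3.76 and 4.07).

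The closest match in pattern among the 9 was that of PGD and TKT. Over the 16 libraries, with each gene centred on its own mean, their log2 CPM differed by a root mean square of 0.172, and PGD was 3rd for TKT, and TKT 5th for PGD, among 12074 genes averaging 100 counts or more. CBX6 (0.164) and ENO2 (0.167) came before PGD for TKT. The pattern of PYGL was nearest to those of PLOD2 (0.244), CISH (0.287) and DENND2B (0.337), and its nearest enzyme of the 9, PGD, ranked 566 at 1.06. For GYS1 the nearest genes were EEF2K (0.151), PRDX1 (0.161) and SYNM (0.182), for GBE1 SLC25A37 (0.169), LINC00963 (0.178) and SLC25A16 (0.189), and for PYGB TKFC (0.130), COA3 (0.159) and STIM1 (0.164). PGM1 was nearest to EXOC4 (0.139), C6orf89 (0.139) and ZNF623 (0.145), and UGP2 to SP3 (0.0973), DNAJB4 (0.123) and USP25 (0.123). The nearest to PGD were TMEM94 (0.158), RILPL2 (0.166) and MATCAP1 (0.168), and to TALDO1 IRF2BP1 (0.123), BLOC1S4 (0.129) and TRNP1 (0.130). These likenesses rest on 4 lines with shared libraries and are given as a description.

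The comparison of sgKDM5C with sgCtrl asks whether mutation of KDM5C altered these enzymes. None of the 9 was called in 786-O (0.00991% of all genes called), CAKI-2 (0% of all genes), A498 (0.00496% of all genes) or 769-P (0.00496% of all genes), nor in the mean over the 4 lines (0.00991% of all genes) or in the test of a difference between lines (0% of all genes). At an unadjusted p under 0.05, 0 of 9 passed in 786-O (2.92% of all genes), 0 in CAKI-2 (1.94%), 1 in A498 (5.55%), 0 in 769-P (3.32%), 1 in the mean (5.18%) and 0 in the difference between lines (2.29%). DESeq2 called 0 of 9 in each of these as well. The mean effects ran from -0.19 for PYGB to 0.15 for UGP2 on the log2 scale, with a median of -0.00 for the 9 and 0.04 for all genes tested.

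The intervals give the size of change that these libraries could still hold. For the mean over lines, the 95% intervals were -0.17 to 0.17 for GYS1, -0.14 to 0.32 for GBE1, -0.06 to 0.35 for PYGL and -0.09 to 0.35 for PGM1. They were -0.11 to 0.41 for UGP2, -0.30 to 0.08 for PGD, -0.34 to 0.09 for TKT and -0.21 to 0.15 for TALDO1. For PYGB the interval was -0.37 to -0.01 and, unlike those above, did not include 0 (adjusted p = 0.901 by edgeR). All of them lay within 0.41 of 0 on the log2 scale. Within a single line they were wider, for example -0.04 to 0.88 for PYGL in 769-P, where the sgKDM5C libraries stood at 139% and 128% of control.

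**Figure D4:**
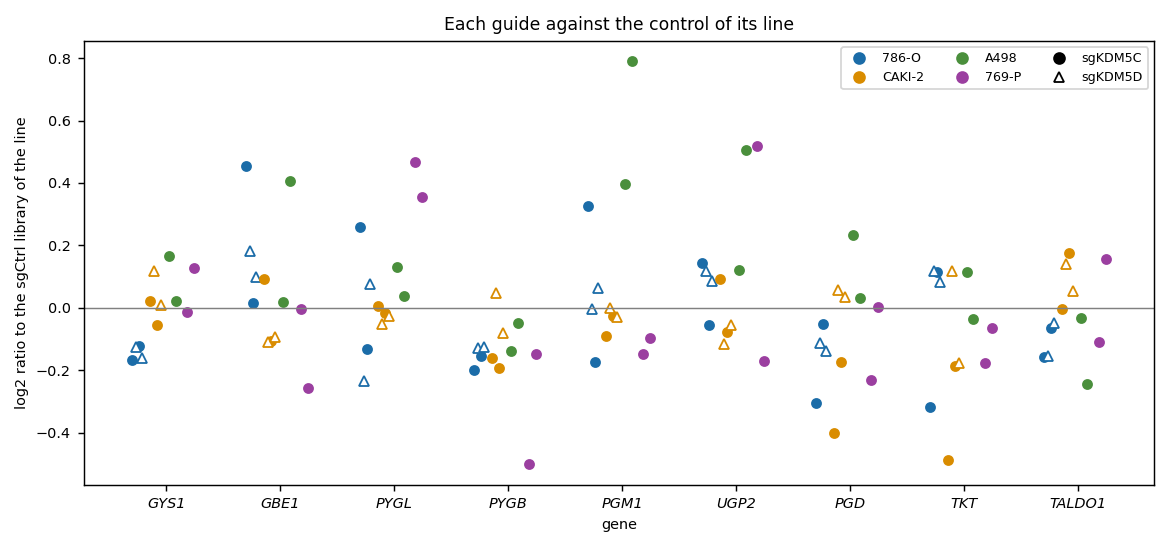
Log2 ratio of each sgKDM5C library (filled circles) and each sgKDM5D library (open triangles) to the sgCtrl library of its line, by gene and coloured by line, where each point is 1 library and 0 is no change. The 9 enzymes scatter around 0 apart from PYGB, which is below 0 in 8 of 8 sgKDM5C libraries.

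PGM1 in A498 was the enzyme with the largest difference. The sgKDM5C libraries were at 132% and 173% of the control (0.61 on the log2 scale, SE 0.215, 95% interval 0.15 to 1.07, adjusted p = 0.88 by edgeR). In a fit of the A498 libraries alone the value was 0.59 with an adjusted p of 0.0395, and over the other alternatives the adjusted p was 0.397 to 1. In the other lines 5 of 6 sgKDM5C libraries were below their control. The difference in log2 level between genes of 60% and 40% GC also moved in A498, from 0.73 in the control to 0.55 and 0.35 with guides 4 and 5, and with the trend removed the value for PGM1 was 0.58 (adjusted p = 0.778). The transcript of PGM1 has 51.0% GC, which lies between these points of the trend. A cause of its difference was not tested.

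PYGB was below control in 8 of 8 sgKDM5C libraries, at 70.7% to 96.7% of it, and in 3 of 4 sgKDM5D libraries, at 91.4% to 103%. Its mean effect was -0.19 (SE 0.0830, 95% interval -0.37 to -0.01), with an adjusted p of 0.901. The lowest ratio was that of guide 4 in 769-P, the library with the steepest GC trend. The transcript of PYGB has 58.4% GC, and the cause of the low ratio was not tested. Over 14 alternatives the mean ran from -0.25 without guide 5 in all lines (adjusted p = 0.0967 by edgeR) to -0.11 with the GC trends removed (adjusted p = 1), and without guide 4 it was -0.14. The ratios of a line share its 1 control library, so the common sign does not rest on 8 independent comparisons.

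For sgKDM5D, 0 of 9 were called against sgCtrl in 786-O (0.0149% of all genes) and CAKI-2 (0% of all genes), and 0 of 9 had an unadjusted p under 0.05 (1.82% and 0.773% of all genes). The differences ran from -0.14 for GYS1 to 0.14 for GBE1 in 786-O and from -0.10 for GBE1 to 0.10 for TALDO1 in CAKI-2. Between sgKDM5C and sgKDM5D, 0 of 9 were called in 786-O (0.0644% of all genes) and in CAKI-2 (0% of all genes). At an unadjusted p under 0.05 these comparisons gave 0 of 9 in 786-O (4.78% of all genes) and 1 of 9 in CAKI-2 (3.38% of all genes). That gene was PGD, at -0.33 with sgKDM5C relative to sgKDM5D (SE 0.144, 95% interval -0.64 to -0.02, adjusted p = 1).

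The rest of the pathway was read from lists holding 40 other genes, of which 37 were tested. None of the 37 was called in a genotype comparison. In the mean effect of sgKDM5C their median was -0.00, and 3 of the 37 had an unadjusted p under 0.05 (5.18% of all genes), a number near that background. They were the phosphorylase kinase subunit PHKG2 (-0.24), PPP1R3B (0.33), which targets protein phosphatase 1 to glycogen, and PRPS1 (0.24), which makes phosphoribosyl pyrophosphate. PPP1R3B was at 21.8 and 13.1 CPM with sgKDM5C against 9.63 in 786-O, but at 22.9 and 21.4 against 23.8 in CAKI-2. Within lines, 2 had an unadjusted p under 0.05 in 786-O (PPP1R3B and HK2, 2.92% of all genes). There were 0 in CAKI-2 (1.94%) and A498 (5.55%). In 769-P (3.32%), HK2 passed as higher and GYG2, at 4 counts or fewer, as lower. Of the 37, 25 were called between 786-O and CAKI-2 (63.3% of all genes), 21 between 786-O and A498 (68.7%) and 24 between 786-O and 769-P (50%). The counts were 27 for CAKI-2 against A498 (65.8%), 24 for CAKI-2 against 769-P (63.8%) and 30 for A498 against 769-P (69.9%), and nothing particular to the pathway is read from them. GYG1, the glycogenin that primes the chain, averaged 25.3 to 39.6 CPM over the lines. PPP1R3C, another targeting subunit of the same phosphatase, averaged 17.3 CPM in A498, 16.5 in CAKI-2, 5.0 in 786-O and 0.5 in 769-P.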

How the data were processed

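Counts per gene were used as the authors deposited them. Per the labels, total RNA was made into Illumina TruSeq Stranded libraries, and the submitters' processing notes name Trimmomatic 0.38, STAR 2.5.2b and GRCh37. The counting tool, its annotation and its use of strand are not given in the sources used here. Of 57773 gene IDs, 55538 were matched to GENCODE release 44 symbols on GRCh37. Genes with at least 60 counts over 16 libraries were tested by the quasi-likelihood method of edgeR 4.0.16 (TMM, in R 4.3.3) with 1 mean per line and genotype and 6 residual degrees of freedom, since each control is 1 library. Line differences used the mean of the sgCtrl and sgKDM5C groups. P-values were Benjamini-Hochberg adjusted over all 20175 genes tested and called under 0.05. CPM are counts per M (mega) of the TMM-scaled total. The fit was tested on simulated data. The rule named all 9 enzymes with the value in each library, GYG1 and PPP1R3C, pathway genes called between genotypes (there were none) and the 3 genes nearest to each enzyme in pattern. The enzymes and lists were chosen with earlier results of these data known. DESeq2 1.42.0, other scalings, filters, subsets, a guide-number block and, chosen after seeing the data, GC-trend removal and union exon lengths were tried. Some genes of these pathways are not reported here.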

Additional observations from a re-analysis of the deposited data

How the results depend on the processing

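The count of called enzymes kept within 1.5 times its value in 156 of 159 combinations of comparison and setting. The exceptions were 1 instead of 0 for sgKDM5C in A498 with the libraries of A498 alone, and, with the sgCtrl libraries alone (1 per line, spread pooled from other groups), 3 instead of 7 for 786-O against 769-P and 4 instead of 7 for CAKI-2 against A498. Of 891 single values of enzymes in genotype comparisons, 890 stayed on their side of the threshold, where a change of sign between values that were both uncalled was not counted. Of 540 between lines, 495 stayed, 34 fell below it (11 of them with the sgCtrl libraries alone) and 11 passed it, and none reversed. The cause was not tested. The guide number as a replicate block gave -0.19 (adjusted p = 0.976) for the mean effect of sgKDM5C on PYGB, as without it, and changed no call of the 9 in a genotype comparison, but lost 3 of their calls between lines. Differences between guides 4 and 5 correlated at -0.22 to 0.29 between lines. These values cannot show whether libraries with the same guide number belong together, since each guide had 1 library per line. Calls over all genes ranged from 0 to 205 in 786-O (main 2), 0 to 15 in CAKI-2 (main 0), 0 to 348 in A498 (main 1), 0 to 70 in 769-P (main 1) and 0 to 262 in the mean (main 2). They ranged from 0 to 106 for the difference between lines (main 0), 0 to 46 and 0 to 3 for sgKDM5D in 786-O and CAKI-2 (main 3 and 0), 0 to 308 and 0 to 109 for sgKDM5C against sgKDM5D there (main 13 and 0), and 6028 to 10623 for 786-O against 769-P (main 10083). With 1 control library per line, the spread behind an effect in a single line was pooled over the guides of all groups. The lowest count of an enzyme was 165, and the effect of depth was not tested.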

Other observations

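Genes that bring glucose to these pathways also differed between lines. They were picked from the pathway lists after their values were seen, and are given as values. SLC2A1, the glucose transporter GLUT1, ranged over 1124 to 1340 CPM in 786-O, 766 to 943 in A498, 423 to 510 in CAKI-2 and 170 to 179 in 769-P. HK2, which phosphorylates glucose, ranged over 200.5 to 220 CPM in CAKI-2, 78.7 to 110.1 in A498, 50.1 to 74.6 in 786-O and 12.8 to 20.1 in 769-P. Both were lowest in 769-P, as were PYGL, GBE1, PGD and TKT, but the hexokinase HK1 was lowest in A498 (87.8 to 95.7 CPM, against 107 to 119 in 769-P) and the isomerase GPI averaged 434 CPM in 769-P, below CAKI-2 (718) and above 786-O (334) and A498 (279). GAA, the lysosomal glucosidase that degrades glycogen by another route, ranged over 299.9 to 359 CPM in A498 and 17.6 to 26.3 CPM in 786-O. Its range was 139.6 to 156 CPM in CAKI-2 and 30.0 to 36.9 CPM in 769-P. PPP1R3B ranged over 93.1 to 116 CPM in A498 and 71.0 to 102 CPM in 769-P, against 9.05 to 21.8 CPM in 786-O and 18.3 to 23.8 CPM in CAKI-2.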
